A study of Homo sapiens with 9 samples.

Results

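The regions described here were accessible enough to rank among the strongest 50000 ATAC-seq peaks in all 3 libraries of a K562 line homozygous for the STAG2 R614* mutation, and in none of 6 libraries from heterozygous or wild type K562 cells. From each library the 50000 peaks with the highest −log10 p on chromosomes 1 to 22 and X were taken. The 9 sets were merged wherever peaks overlapped by at least 1 bp, which gave 106084 regions. Of these, 1896 (1.79%) met the rule and are called homozygous-only regions, or members in the figures. Members were thus chosen by the −log10 p ranks of all 9 lists, and those ranks are no finding. The same rule in reverse, all 6 other libraries and no homozygous library, held for 1638 regions (1.54%), which serve as one comparison set. The other is the 11068 distal regions found in all 9 libraries, those over 1 kb from a start site, out of 19234 regions found in all 9.

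K562 is a line of human leukaemia cells, first taken from a patient with chronic myeloid leukaemia, and ATAC-seq uses the Tn5 transposase to insert sequencing adapters into accessible DNA. Wild type is the parental line, with no STAG2 mutation. Both mutant lines were edited with CRISPR-Cas9, and each genotype is a single line: heterozygous STAG2 R614* +/-, and homozygous STAG2 R614* -/-, whose samples are also titled null. All cells were grown in the same serum medium, and the labels call the homozygous cells adherent and say that trypsin was used to detach them. Genotype, the edited line and adherent growth therefore cannot be told apart here. Each replicate used 50000 cells and single-end reads of 100 bp, and nothing states that the replicates were separate cultures, so the spread between them may be technical.

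STAG2 is part of cohesin, a protein ring that keeps sister chromatids together and extrudes chromatin loops, many of them anchored where CTCF is bound. Accessible chromatin away from start sites often marks enhancers, where sequence-specific factors displace nucleosomes. AP-1, a dimer of FOS, JUN and related factors, is one of the factors known to open such sites, and its activity is known to follow growth factor signalling and stress.

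The lists were not all independent. Wild type replicate 3 and heterozygous replicate 1 had 46.0% of the shorter list's peaks at identical coordinates, and wild type replicates 1 and 2 had 23.2%. Heterozygous replicates 2 and 3 had 1.17%, and the other 33 pairs of lists had 0.223% to 0.351%. Whether reads were pooled or mixed cannot be told from the lists, and the most similar pair crosses genotypes. The comparisons between libraries are therefore also given with the lists of the first 2 pairs treated as shared, which leaves 4 sources among the 6 lists. On chromosomes 1 to 22 and X the full lists held 181407 to 319697 peaks, and the −log10 p at rank 50000 lay between 4.95 and 6.73. Read counts are not part of these lists, and the depth behind each peak is therefore unknown.

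Sequences of the strongest members are shown first, because an AP-1 site was found in a larger share of members than of the other region sets. Each runs from 100 bases before to 100 after the midpoint of the strongest homozygous peak in the GRCh37 reference, plus strand, in lower case, with every AP-1 match (TGAGTCA on either strand, so TGACTCA on the minus strand) in capitals. The first 4 are the strongest members with a match near the midpoint, among the chromosomes from which sequence is shown, and lie at chr14:63424424-63424624 in an intron of KCNH5, chr10:60195132-60195332 between genes, chr5:157809565-157809765 in the non-coding gene LINC02227 and chrX:141256412-141256612 in a non-coding gene 36574 bp from the start of MAGEC2.

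KCNH5 intron: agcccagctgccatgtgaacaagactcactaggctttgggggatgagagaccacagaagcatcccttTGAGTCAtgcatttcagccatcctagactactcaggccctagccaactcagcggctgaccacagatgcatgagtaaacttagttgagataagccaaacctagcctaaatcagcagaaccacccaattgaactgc
Chromosome 10, nearest start TFAM: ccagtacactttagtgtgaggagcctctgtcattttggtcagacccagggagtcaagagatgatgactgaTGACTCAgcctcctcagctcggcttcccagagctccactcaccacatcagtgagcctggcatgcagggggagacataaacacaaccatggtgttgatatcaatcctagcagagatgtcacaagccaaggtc
LINC02227: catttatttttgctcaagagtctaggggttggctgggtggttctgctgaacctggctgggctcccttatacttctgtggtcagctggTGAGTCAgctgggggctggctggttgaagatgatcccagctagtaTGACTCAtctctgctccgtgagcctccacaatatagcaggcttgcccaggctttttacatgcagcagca
Chromosome X, nearest start MAGEC2: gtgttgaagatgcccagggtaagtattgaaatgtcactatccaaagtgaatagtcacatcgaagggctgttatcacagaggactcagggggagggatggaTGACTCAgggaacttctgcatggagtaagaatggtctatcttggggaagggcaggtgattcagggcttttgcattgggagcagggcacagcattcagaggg

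The LINC02227 sequence held 2 matches and the other sequences 1 each, all within 50 bp of the midpoint of the peak. A strong member without an AP-1 match in 500 bp is printed for contrast, at chr4:170256546-170256746, between genes.

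Chromosome 4, nearest start SH3RF1: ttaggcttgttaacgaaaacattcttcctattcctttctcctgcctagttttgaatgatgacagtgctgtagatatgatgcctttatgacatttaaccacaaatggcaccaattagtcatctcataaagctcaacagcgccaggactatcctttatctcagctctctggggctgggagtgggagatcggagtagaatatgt

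This stretch had a GC content of 42.3% and carries no capitals, since no AP-1 match was found in it.

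Ordered by the lowest of the 3 percentiles of −log10 p within the homozygous lists, the first member was that at SIPA1L1, a regulator of Rap GTPases (chr14:71995513-71996027). Its fold enrichment, as the authors' peak caller gave it over that library's own background, was 15.1, 13.3 and 12 in homozygous replicates 1 to 3. The full lists of the other 6 libraries held a weaker peak there, with fold enrichments of 3.35, 4.90 and 3.66 in wild type and 3.83, 4.08 and 3.38 in heterozygous libraries. This region was thus strong in the homozygous lists and weaker, not missing, in the others. Its peak in wild type replicate 2 had a −log10 p of 6.44, the value at that list's rank 50000, so the random order of ties made it a member, and taking all tied peaks removes it. These values chose the member and are descriptive.

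The KCNH5 region (chr14:63424246-63424779), inside a voltage-gated potassium channel gene, had a different pattern. Its fold enrichment was 10.3, 10.6 and 12.6 in the homozygous libraries, and no peak of any strength was listed there in the other 6. At chr10:60194799-60195920, 49995 bp from the start of TFAM, a mitochondrial transcription factor, the homozygous values were 8.39, 10.2 and 8.81. All 6 other lists held a peak there, at 2.61 to 4.38. At chr4:170256327-170256964, 64538 bp from the start of SH3RF1, the homozygous values were 9.65, 9.04 and 10.7 against 2.91 to 3.90 in the 5 other lists with a peak. The remaining 6 of the 10 strongest members had homozygous fold enrichments of 7.13 to 12.8, and 3 to 5 of the other lists held a peak at each.

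Among those 6, chr8:43160033-43160580 lay in an intron of POTEA, a gene of the primate POTE family. Another, chr8:38409649-38410154, lay in the non-coding gene LINC03042, 83549 bp from the start of FGFR1, a fibroblast growth factor receptor. Its peak in wild type replicate 1 had a −log10 p of 6.03, tied with rank 50000 of that list, so this region too is a member only through the order of ties. The region at chr1:218758790-218759621 lay between genes, and its nearest start, 239628 bp away, was that of TGFB2, a ligand of the transforming growth factor family. Those at chr2:150504734-150505584 (MMADHC-DT), chr7:89710838-89711365 (STEAP2-AS1) and chr5:157809388-157809915 (LINC02227) lay in non-coding RNA genes. Of the 10 strongest members, 1 was near a start site, 2 were in introns of protein-coding genes and the others were in non-coding RNA genes or between genes.

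Most homozygous-only regions were of middling strength. Their median rank was 27424, 28116 and 26266 in homozygous replicates 1 to 3, where distal regions of all 9 libraries had 14374, 14778 and 14036. Their median fold enrichment was 5.42, 4.99 and 6.09, and their median −log10 p 7.51, 6.89 and 9.80. In homozygous replicate 1, 9.39% ranked within the first 10000 and 20.3% beyond 40000. The shares were 9.23% and 21.8% in replicate 2, and 13.3% and 18.5% in replicate 3. Only 8 members had all 3 ranks within 5000, 29 within 10000 and 154 within 20000. The members' order differed between libraries: the Spearman correlation of their ranks was 0.234 to 0.295 over the 3 pairs of homozygous libraries, against 0.546 to 0.566 for regions of all 9. These correlations are across regions, which share libraries and a limit on rank, and are descriptive.

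The limit cut through a continuum. The last 3 regions inside it had a weakest homozygous rank of 49970, 49986 and 49999, and the first 3 outside it 50005, 50006 and 50010. Many peaks also shared 1 value at rank 50000, up to 5309 in wild type replicate 1, and a fixed random order decided which were taken. When all tied peaks were taken 1869 regions met the rule, and when all were left out 2016 did. Of the 1896 members, 1858 (98.0%) were found under each of 3 other ways to treat ties. With the 20000 strongest peaks per list the rule gave 781 regions, with the 100000 strongest 3159, and with all peaks 4707.

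The requirement of all 3 homozygous libraries can be checked by choosing regions without one of them. Without homozygous replicate 1, 3268 regions met the rule, and 58.2% of these were among that library's own 50000 strongest peaks. Without replicate 2 there were 3496 regions and a share of 54.3%, and without replicate 3 there were 3087 regions and a share of 61.7%. More than 1 in 2 such regions thus recurred in a homozygous library that had not been used to choose them. Over all regions, which were not chosen by absence from other lists, the shares were 43.1%, 42.4% and 43.4% in these 3 libraries. As a reference, regions found in exactly 2 of the other 6 libraries and in neither of the 2 kept homozygous libraries recurred in the left-out homozygous library in 11.0%, 10.1% and 10.8% of cases. Their absence from the 2 kept homozygous libraries favours such low shares, so the reference is not a like-for-like one. When each wild type or heterozygous library was left out in turn, 3.36% to 9.46% of the regions chosen without it were among its 50000 strongest. Over all regions the shares were 44.2% to 45.8%. Those regions were not chosen by absence from the other lists, so the gap does not measure how well absence recurs. The lowest of these values, 3.36% for wild type replicate 3 and 3.61% for heterozygous replicate 1, come from the lists that share the most peaks.

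Absence from the 50000 strongest peaks was often not absence from the full list. In the full lists, 61.0%, 73.5% and 63.1% of the homozygous-only regions were overlapped by a weaker peak in wild type replicates 1 to 3, and 56.8%, 46.9% and 48.7% in heterozygous replicates 1 to 3. For all regions missing from the same library's 50000, the shares were 59.7%, 69.2% and 66.9%, then 62.5%, 54.2% and 55.8%. The members' share was thus above that of such regions in wild type replicates 1 and 2 and below it in wild type replicate 3 and the 3 heterozygous lists. The weaker peaks had median fold enrichments of 3.38 to 3.61. Of the members, 1630 (86.0%) had a weaker peak in at least 1 wild type list and 1405 (74.1%) in at least 1 heterozygous list. Longer lists favour such peaks, and these 2 shares were not counted over all regions.

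**Figure D1:**
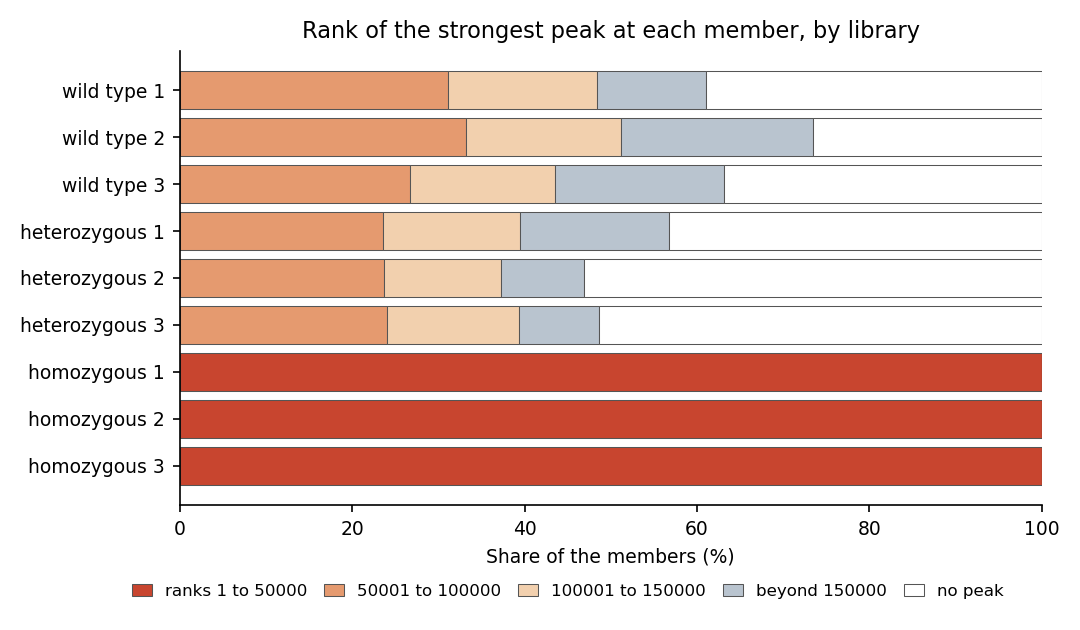
Share of the 1896 members (x axis, %) by the rank of the strongest overlapping peak in each library's full list (y axis). All bars of the 3 homozygous libraries fall in ranks 1 to 50000 because the rule requires it; in the other 6, the open part, with no peak, runs from 26.5% in wild type replicate 2 to 53.1% in heterozygous replicate 2.

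A total of 193 members (10.2%, 95% Wilson interval 8.90 to 11.6) had no peak in any of the 6 other full lists, and 409 (21.6%) had one in all 6. Counted by the 4 sources, 525 members (27.7%) had a peak in every source. A peak in all 3 wild type lists and no heterozygous list was found at 43 members, and the reverse at 3. The full lists held 222996 to 303825 peaks in wild type and 196318 to 253798 in heterozygous libraries. Longer lists favour a peak at any region, and these patterns were not counted over all regions. The share without any peak depends on list length: with lists limited to their 150000 strongest peaks it was 20.1%, and when a peak had to cover the midpoint of the region it was 13.7%.

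The 5 strongest members with no peak elsewhere began with the KCNH5 region above. The next, chr12:44437850-44438752 in an intron of TMEM117, had homozygous fold enrichments of 7.56, 8.56 and 6.87. One at chr8:102599311-102599853 lay in an intron of GRHL2, an epithelial transcription factor, with 7.34, 6.98 and 7.21. At these 3 members no homozygous library stood apart. A region between genes, chr2:214094474-214094981, had 7.28, 6.98 and 8.82. One in an intron at chr4:76424543-76425048, nearest to the start of THAP6, had 7.56, 6.65 and 23.6, so replicate 3 stood apart there.

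Whether the homozygous-only regions differed between the wild type and heterozygous lists was tested on the weaker peaks, which the rule did not use. Peaks ranked after the first 50000 and up to 150000 lay at 48.4%, 51.2% and 43.6% of the members in wild type replicates 1 to 3 and at 39.5%, 37.3% and 39.3% in heterozygous replicates 1 to 3. The groups did not overlap: 47.7% ± 3.87 in wild type and 38.7% ± 1.24 in heterozygous libraries (SD, n = 3 each). Heterozygous values were lower by a difference of −9.00 points, for which the exact permutation test, two-sided, gave p = 0.1. This is the smallest p that 3 against 3 libraries allow, so the test cannot pass 0.05. All regions missing from the same top lists had a weaker peak in 49.2%, 51.8% and 51.2% of wild type and 48.8%, 46.4% and 48.1% of heterozygous cases. Divided by those shares, the ratio was 0.940 ± 0.0776 in wild type and 0.811 ± 0.00706 in heterozygous libraries (SD, n = 3 each), again with an exact permutation p of 0.1. With lists that share peaks counted as 1 source and heterozygous replicate 1 left out, the difference was −8.36 points, at an exact permutation p of 0.333.

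Homozygous-only regions were mostly distal. Their midpoint lay within 1 kb of a protein-coding start site in 109 cases (5.75%, Wilson interval 4.79 to 6.89), against 5.68% of regions missing only from homozygous libraries, 13.7% of all regions and 42.5% of regions in all 9 libraries. Introns of protein-coding genes held 745 (39.3%), exons 51 (2.69%), long non-coding RNA genes 290 (15.3%), and 701 (36.97%) were intergenic. Over all regions these shares were 36.0%, 3.32%, 13.8% and 33.1%, close to those of the members. The median distance of members to a start site was 40306 bp, and 27.3% lay over 100 kb away. For regions missing only from homozygous libraries the values were 36703 bp and 28.1%, and for all regions 30036 bp and 23.8%. The median width of members was 673 bp, where the distal regions of all 9 libraries had 1012 bp. Members merge peaks of 3 lists and the others peaks of 9, which favours wider regions, so the widths are not like for like. The share near start sites was 21.5% among the 781 regions found with the 20000 strongest peaks, so the stronger set holds more promoters. The same share over all regions of that setting was not counted, so this rise cannot be read as particular to members.

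The start sites with the strongest members belonged to genes of varied function. After SIPA1L1 came BX088651.2 (chr9:44325377-44326695), with homozygous fold enrichments of 7.56, 7.61 and 5.92 and 4.13 to 4.40 in the 4 other lists with a peak. The region 196 bp from the start of NKX6-1, a homeobox factor of pancreatic and neural development, had 6.94, 7.30 and 6.92 (chr4:85420336-85420948). No other list held a peak at NKX6-1. At IGFN1 (chr1:201160648-201161188) the values were 8.50, 6.13 and 9.53, and only heterozygous replicate 2 had a peak, at 3.37. At SRPX2, which encodes a secreted protein with sushi repeats, they were 7.12, 6.04 and 9.26 (chrX:99898894-99899415), against 3.19 to 4.29 in 4 other lists.

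A membrane enzyme and a secreted inhibitor were also in this group: ECE1, which activates endothelin, with 7.39, 7.74 and 6.45, and SERPING1, the inhibitor of complement C1, with 5.72, 5.16 and 5.13. KCND2, a potassium channel gene, had 5.58, 6.56 and 6.94, and C4orf51 had 5.96, 5.06 and 7.80. The weakest of the 10, at the ribosomal protein gene RPL36, had 5.60, 4.67 and 4.53, and all 6 other lists held a peak there, at 3.42 to 4.01. At RPL36 the homozygous values were thus close to the others, without overlap. Of the 109 members near start sites, 18 (16.5%) held an AP-1 match.

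Along the chromosomes, neighbouring regions were members more often than the share of members over all regions. The next merged region downstream of a member was also a member in 78 of 1896 cases (4.11%, against 1.79% of all regions). For regions missing only from homozygous libraries this held in 48 of 1638 cases (2.93%, against 1.54%). A member was followed by a region missing only from homozygous libraries in 12 cases (0.633%, against 1.54%). Pairs of adjacent members were thus more frequent, and adjacent pairs of opposite class less frequent, than the overall shares. Positions are not independent, and no test was made.

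Over longer distances the 2 classes were alike in spacing. The median distance between a member and the nearest other member was 300191 bp, and 299580 bp for regions missing only from homozygous libraries. Another member lay within 10 kb of 80 members (4.22%), within 50 kb of 328 (17.3%) and within 100 kb of 512 (27.0%). For the opposite class the share within 100 kb was 24.97%. A region of the opposite class lay within 100 kb of 217 members (11.4%). The share with another member within 100 kb follows the number of regions chosen: it was 17.2% with the 20000 and 38.7% with the 100000 strongest peaks, and 36.995%, 37.6% and 34.95% without homozygous replicates 1, 2 and 3.

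Linking members with gaps of at most 100 kb left 1384 alone and gave 161 pairs, 33 runs of 3, 14 runs of 4 and 6 runs of 5 to 7, which held 35 members. The opposite class had 3 runs of 5 or more, with 18 regions. The 2 longest by number held 7 members each. One covered chr5:14190108-14450819 inside TRIO, a guanine nucleotide exchange factor that acts on the actin cytoskeleton. Of all peaks among the 50000 strongest, homozygous replicates 1 to 3 had 19, 18 and 20 in this stretch, wild type replicates 9, 9 and 7 and heterozygous replicates 8, 9 and 8. The stretch held 33 merged regions, of which 7 were members, 4 were found in all 9 libraries and 1 was missing only from homozygous libraries.

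The second run lay at chr4:140736947-141017726 inside MAML3, a coactivator of Notch signalling. Homozygous replicates had 16, 14 and 19 of their 50000 strongest peaks there, wild type replicates 4, 5 and 1 and heterozygous replicates 3, 2 and 3. None of its 29 regions was found in all 9 libraries, so the stretch held no strong peak common to all. A run of 6 at chr2:41963143-42200387 lay between genes, and its nearest start, 75211 bp away, was that of PKDCC, a secreted kinase of skeletal development. There the counts were 17, 18 and 16 in homozygous, 6, 6 and 7 in wild type and 10, 12 and 9 in heterozygous replicates.

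The other 3 runs held 5 members each. At chr3:18103095-18245592 in TBC1D5, which acts in endosome traffic, homozygous replicates had 7, 6 and 5 strong peaks, wild type replicates 1, 2 and 0 and the heterozygous replicates 0 each. The members of this run lay 217600 to 321866 bp from their nearest starts, which were those of SATB1 and TBC1D5. At chr5:114656874-114784779, near CCDC112, the counts were 10, 10 and 14 in homozygous, 6, 6 and 3 in wild type and 3, 3 and 1 in heterozygous replicates. At chr2:161083701-161262502, which reaches from near ITGB6 into RBMS1, they were 12, 11 and 10, then 7, 5 and 6, and 6, 6 and 4. In each of the 6 runs every homozygous library had more strong peaks than every other library. The rule favours this, since each member adds at least 1 peak to the homozygous counts only.

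By chromosome, members made up 1.31% of the regions on chromosome 12, 1.32% on chromosome 16 and 1.37% on chromosome 14, and 2.99% on chromosome 22, 2.57% on chromosome 19, 2.37% on chromosome 17 and 2.31% on chromosome 18. The opposite class was rarest on chromosomes 22 (0.333%), 19 (0.337%) and 17 (0.550%). Over all strong peaks, homozygous lists held 1.37 times the other lists' share on chromosome 22, 1.28 times on chromosome 17 and 1.27 times on chromosome 19. Chromosome X had 0.865 times. Across the 23 chromosomes, the share of members and this ratio had a Spearman correlation of 0.577, a description over points that share the same libraries. The part of a shift of whole chromosomes in the members' positions was not tested.

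**Figure D2:**
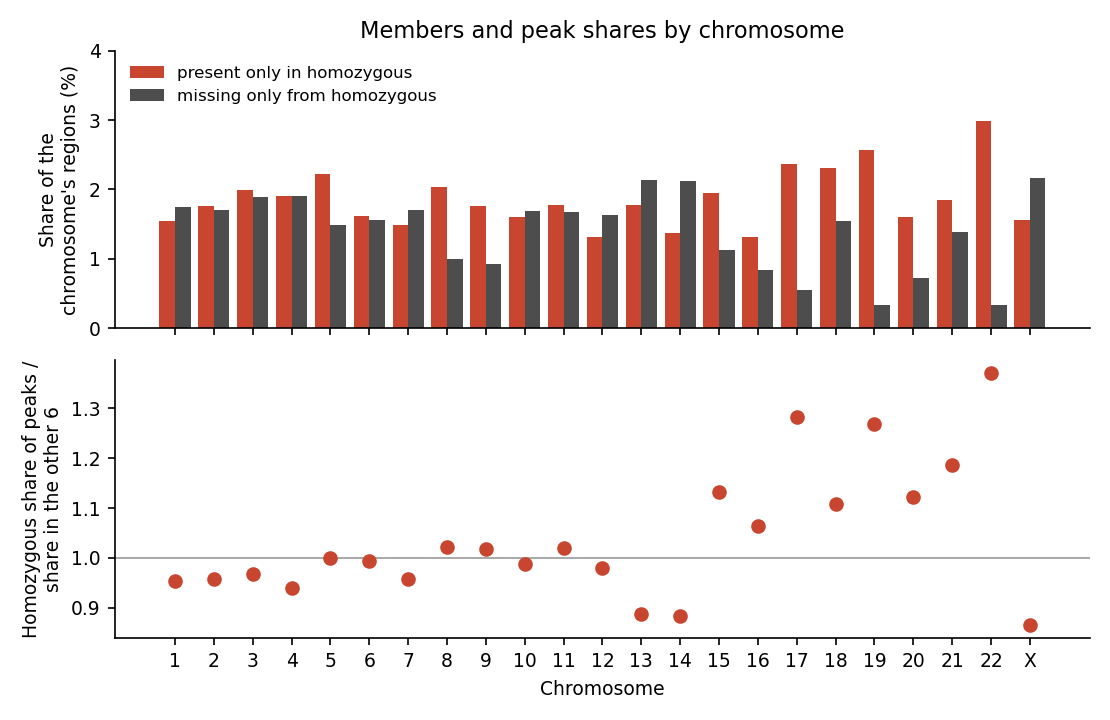
Top: share of each chromosome's merged regions (y axis, %) that were members (red) or missing only from homozygous libraries (grey). Bottom: mean share of the 50000 strongest peaks on that chromosome in homozygous libraries divided by the mean of the other 6 libraries. Chromosomes 15 to 22 lie above 1, with chromosome 22 highest at 1.37, and chromosomes 8, 9 and 11 lie just above 1, at 1.02 each.

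Genes were taken as holding a member when its midpoint lay inside the gene or at most 10 kb from it. Of 20090 protein-coding genes, 1078 (5.37%) held at least 1 member, 129 at least 2, 31 at least 3 and 6 at least 5. These genes were long, with a median of 103 kb against 27.3 kb for all, and longer genes hold more regions of any kind. Of the members, 1069 (56.4%) lay in or near a protein-coding gene. Both a member and a region missing only from homozygous libraries were found at 113 genes, which is 10.5% of the genes with a member and 10.7% of those with the opposite class. Over all 20090 genes, 5.37% held a member and 1053 genes held the opposite class. Gene length favours such overlap, since long genes hold more of both classes.

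TRIO and MAML3 held 7 members each, of 43 and 41 regions. The strongest in MAML3, chr4:140910443-140910968, had homozygous fold enrichments of 10.4, 6.67 and 12.2 and 2 AP-1 matches, and weak peaks of 2.42 to 4.27 in 4 other lists. In TRIO the strongest, chr5:14449162-14449955, had 6.25, 5.59 and 4.28, with weak peaks in the 3 wild type lists only. The close neighbour chr5:14450009-14450819 counts as a separate member, since only overlapping peaks were merged. SH3KBP1, an adaptor in receptor endocytosis, held 6 of 23 regions, and at 3 of them no other list had a peak (chrX:19728180-19728690, chrX:19594790-19595741 and chrX:19597519-19598165), each with 1 AP-1 match. These 3 had homozygous fold enrichments of 4.12 to 6.9995.

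TBC1D5 also held 6 members, but of 98 regions over 1288 kb. ESR1, the oestrogen receptor alpha gene, and CDK14, a cyclin-dependent kinase gene, held 5 each, of 29 and 34 regions. The member at chr6:152112153-152112697 in ESR1 had a peak tied with rank 50000 of homozygous replicate 1 and would drop out with all tied peaks left out. The strongest at ESR1, chr6:152421188-152421886 in an exon, had 7.38, 6.35 and 8.09. Of the 5 members at CDK14, 4 held an AP-1 match. SYNE1, a nuclear envelope protein gene beside ESR1, held 4, and 1 of these regions is counted for both genes.

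ADAM19, a metalloprotease gene, SLC30A10, a manganese exporter gene, GRIA1, a glutamate receptor gene, and SETBP1, which is mutated in some myeloid neoplasms, held 4 members each. Those at SLC30A10 lay 103730 to 157360 bp from their nearest starts, which were those of SLC30A10 and ZC3H11B. In SETBP1 the 2 strongest had homozygous fold enrichments of 6.87, 5.32 and 12.01 (chr18:42467028-42467602, no other peak) and of 7.98, 5.07 and 12.2 (chr18:42456601-42457225). LMCD1, CMTM7, DDX60L and RBMS1 held 3 each. At LMCD1, which encodes a LIM domain protein, 3 of 9 regions were members, and its strongest, chr3:8602108-8602848, had 6.79, 6.64 and 7.78, with peaks of 3.55 to 4.44 in all 6 other lists. One of the 3 at DDX60L, chr4:169417901-169418449, lay 29 bp from a start site of PALLD, which encodes an actin-binding protein, with 5.50, 6.85 and 5.68 and no peak in the other lists.

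Gene lists on adhesion, blood cell identity and signalling were set beside these. Together 30 of 323 distinct listed genes (9.29%) held a member, against 5.37% of all genes, and in 9 of the 13 lists the median gene was longer than the 27.3 kb of all genes. In the list for focal adhesion and actin attachment, 6 of 30 genes held 1 member each, at a median gene length of 100 kb, and 2.40% of their regions were members, against 1.52% of all region and gene pairs. LPP, a LIM protein of focal adhesions, had 6.41, 5.72 and 8.73 at chr3:187958695-187959346, with 3.42 to 4.60 in all 6 other lists. NEDD9, a scaffold of integrin signalling, had 6.77, 5.26 and 5.91 at chr6:11224555-11225402. CAV2, a caveolin gene, had 6.97, 4.45 and 5.56 at chr7:115956829-115957866, whose nearest start, 66858 bp away, was that of TES. ENAH and TNS1 were also among the 6.

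Of 26 integrin genes, 2 held members, and both held 2, which is 2.76% of the regions at these genes. ITGA2, a collagen receptor subunit, had 7.01, 4.54 and 9.24 at chr5:52304467-52305006, with 1 AP-1 match, and 5.50, 5.96 and 5.62 at chr5:52365403-52366038. ITGA9 had 7.73, 4.41 and 7.51 at chr3:37717234-37718126 and 5.74, 4.72 and 4.43 at chr3:37572034-37573310. All 4 of these regions had a weak peak in 3 to 6 of the other lists. In the extracellular matrix list 3 of 32 genes held a member: LAMC1, LAMA4 and FBLN1, which encode laminin chains and a fibulin. Of 23 genes of the mesenchymal switch and cadherins, 1 did: SMAD3, a mediator of transforming growth factor signals, with 4.79, 4.15 and 6.66 at chr15:67442348-67443142 and no peak in any other list.

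In the TEAD and YAP list 2 of 25 genes held a member: CCN2, a matricellular protein gene and a known target of these factors, and PTPN14, a phosphatase that restrains YAP. The region 3561 bp from the start of CCN2 (chr6:132275817-132276331) had 7.80, 7.91 and 4.72 and 1 AP-1 match. Weak peaks of 2.79 to 3.32 lay there in the 3 wild type lists and heterozygous replicate 1. Of 24 genes of MAPK feedback, 3 held a member: EGR3, DUSP5 and IER2, all immediate early or feedback genes, which is 3.19% of the list's regions. The one at EGR3, 6 bp from its start, had 4.55, 4.30 and 4.19. Among 21 genes of AP-1 and related factors, FOSB held 1, 237 bp from its start with 5.11, 4.52 and 4.75, and BACH2 held 1. At FOSB all 6 other lists held a peak of 3.33 to 4.07, so the difference there was small.

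Genes of blood cell identity made up 3 lists. In the red cell list 1 of 25 genes did (EPB41), in the megakaryocyte and platelet list 2 of 22 (TBXAS1 and ARHGAP6), and in the list of haematopoietic transcription factors 2 of 26 (TAL1 and MECOM). The member 9516 bp from the start of TAL1, a factor of blood stem cells and red cells, had 5.50, 5.11 and 6.29 at chr1:47707085-47707742, with 3.06 to 4.19 in all 6 other lists. Regions at these genes were members in 0.633%, 1.48% and 0.980% of cases, below the 1.52% given above. Of 25 cytokine and NF-kB genes 1 held a member, CSF2, with 2 AP-1 matches at chr5:131405921-131406817. Of 15 cohesin genes 1 did, RAD21, the kleisin subunit, whose member at chr8:117849095-117850312 lay within 10 kb of the gene with 4.52, 4.35 and 5.25. Of 34 genes of axon guidance and synaptic adhesion 4 did: CNTN4, with 2 members, UNC5B, NRXN3 and UNC5C. No list is singled out by these counts.

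AP-1 sites were frequent under the members. An AP-1 match lay within the 500 bp around the midpoint of 786 members (41.5%, Wilson interval 39.3 to 43.7). The share was 12% in regions missing only from homozygous libraries, 20.1% in distal regions of all 9 libraries and 17.3% in all regions. In windows 2 kb downstream of the members it was 8.49%. Single matches were found in 637 members, 2 in 135 and 3 or more in 14. The interval reflects counting alone, since regions of 1 genome are not replicates. In 200 bp around the midpoint the share was 27.7% and over whole regions 46.4%, and without homozygous replicate 3 it was 35.4%. Among the 781 regions found with the 20000 strongest peaks it was 28.3%.

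The CTCF motif showed the opposite: 0.633% of members held it, against 7.81% of regions missing only from homozygous libraries, 6.88% of distal regions of all 9 and 4.21% of all regions. Of the other 14 motifs, 5 common ones follow. The GATA site (AGATAA) was found in 35.9% of members, 34.9% of the opposite class and 33.3% of distal regions of all 9, RUNX (TGTGGT) in 33.8%, 38.5% and 33.0%, and TEAD (GGAATG) in 27.7%, 23.9% and 24.5%. An E-box (CAGCTG) lay in 30.6%, 25.5% and 29.1%, and the SP motif (GGGCGG) in 15.3%, 14.5% and 24.9%. Over all regions these 5 lay in 29.9%, 32.3%, 23.7%, 27.3% and 23.6%. NF-E2, an AP-1 site with TGC before it that is bound in red cell precursors, was rare at 0.949%, 0.794% and 1.37%, and at 1.02% of all regions. Of 964 AP-1 matches in members 30 (3.11%) had the NF-E2 form, against 6.08% of 2633 matches in distal regions of all 9. The 30 lay in 18 members, so some members held several, and the 160 in distal regions of all 9 lay in 152 regions. The remaining motifs of the plot, all fixed strings, lay in 0.949% (CRE) to 20.6% (C/EBP) of members. Motifs were searched on both strands, NF-E2 matches are also AP-1 matches, and a match is not a bound site.

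**Figure D3:**
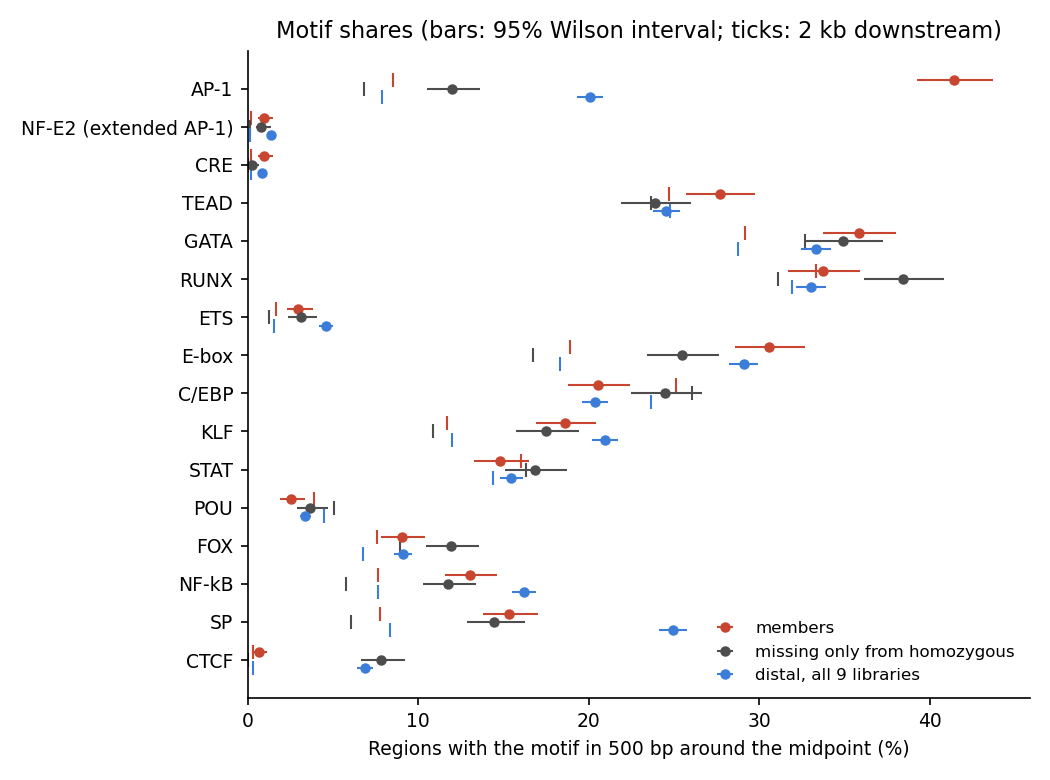
Share of regions with each motif (x axis, %) in 500 bp around the midpoint, for members, for regions missing only from homozygous libraries and for distal regions of all 9 libraries. Points carry 95% Wilson intervals and ticks give the same search 2 kb downstream; AP-1 in members, at 41.5%, lies apart from both other sets.

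AP-1 matches lay near the midpoints of the peaks. In members whose peak was a single 500 bp window, a match lay within 50 bp of the peak's midpoint in 29.8%, 31.0% and 30.2% of homozygous peaks. In the weak peaks at members of the other 6 lists the share was 20.3% to 25.5%, below all 3 homozygous values. At distal regions of all 9 libraries it was 10.6% to 10.7% in homozygous and 11.9% to 12.7% in the other libraries. The homozygous values were thus the lowest there, the reverse of the order at members. In the central bins on either side of the midpoint, homozygous peaks had 8.68 to 11.2 matches per 100 peaks in 25 bp, and the outermost bin upstream had 0.295 to 0.515.

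**Figure D4:**
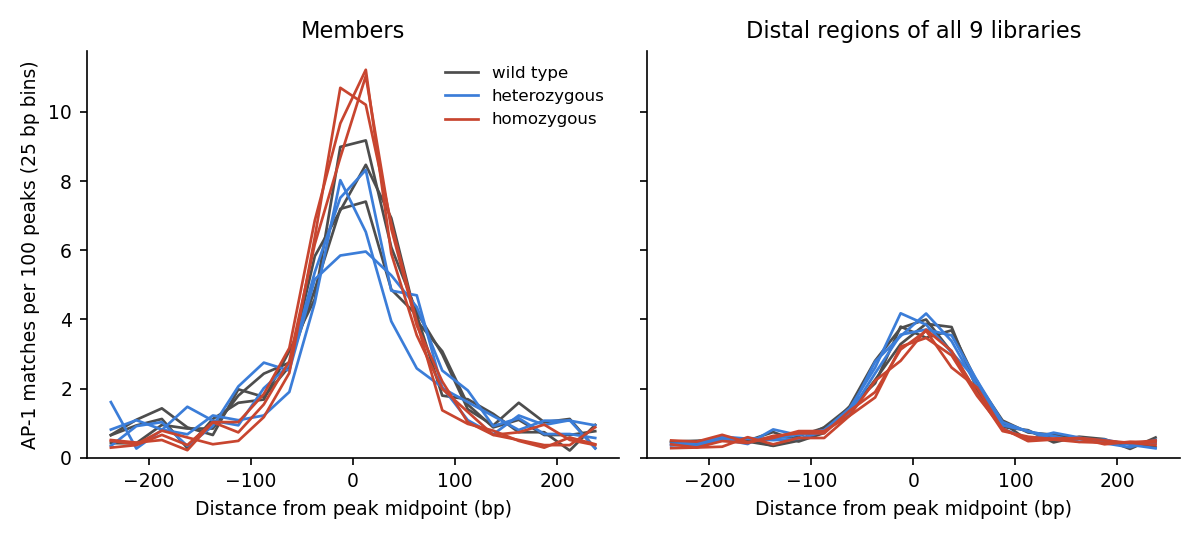
AP-1 matches per 100 peaks in bins of 25 bp (y axis) by distance from the peak midpoint (x axis, bp), for single 500 bp peaks at members (left) and at distal regions of all 9 libraries (right), 1 line per library. At members the 3 homozygous libraries peak at 10.7 to 11.2 matches per 100 peaks, above the other 6, and at shared distal regions no line passes 4.18.

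The share with AP-1 was set beside strength. By 4 classes of the lowest percentile, 474 members each, from weakest to strongest, the share with a match was 42.2%, 42.4%, 37.6% and 43.7%. In homozygous replicate 3, members with AP-1 had a median rank of 22838 and those without 28214, with median fold enrichments of 6.40 and 5.96. In replicates 1 and 2 the median ranks were 27566 against 27318 and 27631 against 28353, so the 2 groups were closer there. The share with AP-1 was 53.9% (104 of 193) among members with no peak in any other list and 31.5% (129 of 409) among those with a peak in all 6. Members with another member within 100 kb had 40.6% and those without had 41.8%. On chromosomes 15 to 22, which held 344 members, the share was 31.4%, and it was 43.7% elsewhere. Of members with AP-1, 2.29% lay near a start site and 9.03% held an SP motif. Of those without AP-1, 8.20% and 19.8% did. Both groups had a like GC content, with medians of 45.8% and 47.6%, and TEAD motifs in 27.6% and 27.7%.

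Values outside the 50000 strongest peaks were compared across libraries. Of peaks ranked after the first 50000 and up to 150000, which did not enter the rule, 6.17%, 5.41% and 7.78% had an AP-1 match within 50 bp of the midpoint in homozygous replicates 1 to 3. The values were 4.68%, 4.77% and 4.24% in wild type and 4.21%, 4.09% and 4.15% in heterozygous replicates. All 3 homozygous libraries lay above the other 6, at 6.45% ± 1.21 (SD, n = 3) against 4.36% ± 0.291 (SD, n = 6). The difference was 2.09 points, at an exact permutation p of 0.0119, two-sided and the smallest that 84 assignments allow. With each source counted once it was 2.15 points, at an exact permutation p of 0.0286. The test concerns all peaks of these ranks, and the motif was picked with the AP-1 share of the strongest peaks known, so it is not independent support.

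Accessible sites beside the members were also counted. Within 10 kb of a member, and outside it, homozygous replicates 1 to 3 had 1.59, 1.58 and 1.48 peaks per member among ranks 1 to 150000. Wild type replicates had 1.32, 1.36 and 1.32 and heterozygous replicates 1.26, 1.39 and 1.38. The homozygous values all lay above the rest, with means of 1.55 ± 0.0626 (SD, n = 3) and 1.34 ± 0.0470 (SD, n = 6). Beside distal regions of all 9 libraries the counts were 1.40 to 1.43 in homozygous and 1.32 to 1.43 in the other libraries, so the ranges overlapped. Beside regions missing only from homozygous libraries the order was the opposite, with 1.35 to 1.37 in homozygous and 1.53 to 1.65 in the others. The difference beside members was 0.208 peaks per member, and 0.190 with shared lists counted as 1 source. It is given without a test, because these peaks come from the libraries and the contrast that chose the members.

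**Figure D5:**
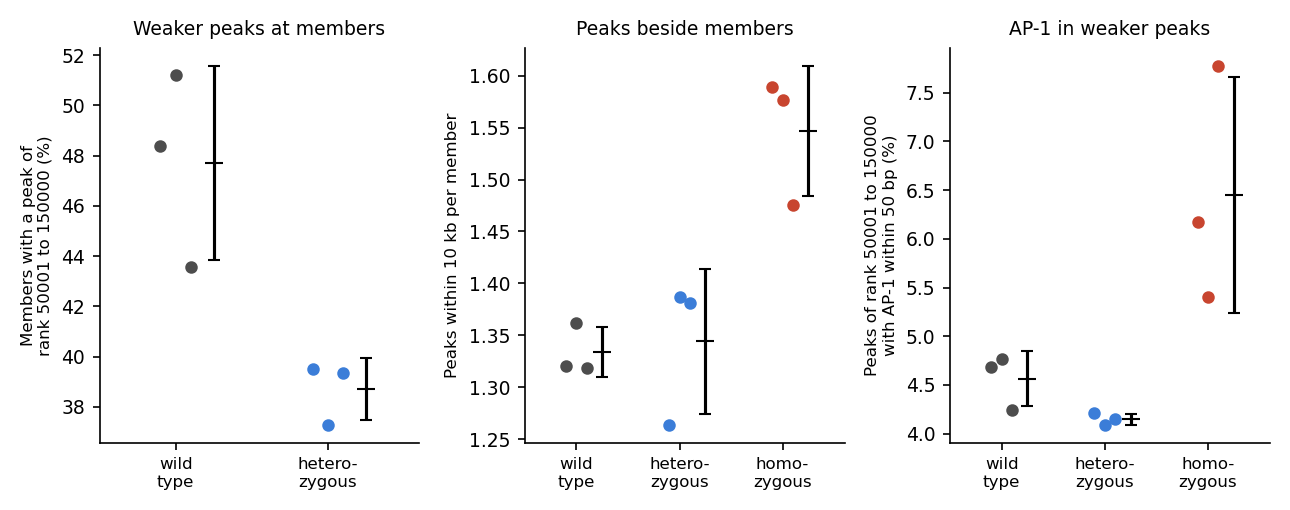
Values per library (points) with the group mean and SD (bars): members with a peak ranked after the first 50000 and up to 150000 (left, %), peaks of rank 1 to 150000 within 10 kb of a member (middle, per member), and peaks of the same ranks as on the left with an AP-1 match within 50 bp of the midpoint (right, %). Axes do not start at 0; heterozygous libraries lie lowest on the left, at 37.3% to 39.5%, and homozygous libraries highest in the other 2 panels.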

How the data were processed

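ATAC-seq was analysed in 9 libraries, 3 per genotype, from 1 deposited peak list per library. The submitters' processing notes name cutadapt, Bowtie2 2.2.9, Picard and MACS2 2.1.0 and the builds hg19 and GRCh37, with no role or order. Whether reads were shifted for the Tn5 offset is not given in the sources used here. Columns were read by the narrowPeak format. Column 7 is a fold enrichment deposited by the authors, a ratio to the caller's local background. Column 8 is a −log10 p deposited by the authors, which ranked the peaks, and column 9 a −log10 q deposited by the authors, which broke ties before fold and a seeded random order. Per list, 80.8% to 82.8% of peaks are 500 bp windows, and the others are longer.

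Regions were merged, classed and annotated in Python 3.11.15 with numpy 2.4.6, pandas 2.3.3 and SciPy 1.17.1, and plotted with matplotlib 3.10.9. Genes came from GENCODE release 44 mapped to GRCh37, and sequence from that reference. A gene's members lie in its body or within 10 kb. Motifs were fixed strings searched on both strands in 500 bp. A percentile of −log10 p within a list measured strength. Named are the 10 strongest members by the lowest of 3 percentiles, the 5 strongest without another peak, the 10 strongest near start sites, the 15 genes with most members, up to 4 genes per list by strongest member and those with at least 2, and the 6 longest runs. Sequences are the 4 strongest members with AP-1 near the midpoint, the 2 strongest without, and the strongest near a start site, leaving out chromosome 8. A gene and a sequence that these rules select are not reported here. ENAH and TNS1 were named after their values were seen.

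The groups follow the genotype in the labels. Library values were compared by exact two-sided permutation tests with a threshold of 0.05. Region shares carry 95% Wilson intervals and no test. A planned test of peaks beside members is reported as values only, because they come from the contrast of the rule. Merging, motif search and tests were checked on simulated data. Alternatives changed the number of peaks, the ranking column, merging, ties, windows, list sharing and libraries. The members, gene lists and motifs were chosen with earlier results of these data known.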

Additional observations from a re-analysis of the deposited data

How the results depend on the processing

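The lists hold peaks, not reads, so depth cannot be weighed, and absence from the strongest 50000 is a rank. The number of homozygous-only regions was 1896. It was 781 with the 20000 strongest peaks, 3159 with the 100000 strongest, 4707 with all peaks and 193 when no weaker peak was allowed in any other list. Ranking by fold enrichment gave 1865, ranking by −log10 q 1923, peaks trimmed to 100 bp 1508, and absence required in 4 sources only 2141. Leaving out 1 library gave 1962 to 3496. The AP-1 share was 28.3% with the 20000 strongest peaks, 27.7% in 200 bp, 46.4% over whole regions and 35.4% to 41.3% with 1 library left out. The start site share was 21.5% with the 20000 strongest peaks, 12.6% within 5 kb and 5.29% to 6.96% with 1 library left out. The share with another member within 100 kb was 17.2% with the 20000 and 38.7% with the 100000 strongest peaks and 27.1% to 37.6% with 1 library left out, and 17.3% within 50 kb and 62.8% within 500 kb. The share with no peak elsewhere was 20.1% in lists limited to 150000 peaks, 13.7% when the midpoint had to be covered and 10.3% to 13.1% with 1 library left out. The treatment of ties and the division by background shares were chosen after seeing the data. Ties moved the number of regions to 1869, 1924 and 2016.

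Same-numbered libraries of different genotypes had correlations of their deviations of −0.232 to 0.0739 over 9 pairs. Differently numbered libraries had −0.181 to 0.325 over 18 pairs, so no pairing by number was seen. Deviations from 1 genotype mean depend on each other, so these values cannot exclude pairing. With replicate number as a block, the exact two-sided permutation p was 0.25 for the −9.00 points at members and 0.037 for the 2.09 points of AP-1, each the smallest p the block allows. The block leaves the 0.208 peaks beside members as they are. With 1 library left out these 3 differences were −11.1 to −7.25 points, 1.43 to 2.62 points and 0.187 to 0.244 peaks, and they kept their direction under every alternative run.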
